A study of Mus musculus with 12 samples.

Results

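The genes described here are 8 genes of the renin-angiotensin system, chosen as a list of symbols: Agt, Ren1, Ace, Agtr1a, Mas1, Enpep, Mme and Atp6ap2. They are 8 of the 57180 genes in the count files, and all 8 were among the 17163 genes with enough counts to be tested. Each symbol was matched to 1 Ensembl identifier.

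Renin cleaves angiotensinogen, the protein that Agt encodes, to angiotensin I, and angiotensin-converting enzyme (Ace) turns it into angiotensin II, which constricts vessels and promotes sodium retention through the AT1 receptor (Agtr1a). Aminopeptidase A (Enpep) and neprilysin (Mme) shorten angiotensin peptides, and Mas1 encodes a receptor for a shorter product with largely opposite actions. The kidney holds a complete local set of these genes: renin is stored by juxtaglomerular cells of the afferent arteriole, and the peptidases lie mainly on proximal tubule brush border, podocytes and endothelium.

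Kidney poly(A) RNA of 12 male C57BL/6J mice, aged 60 days at the start, was sequenced with 1 library per mouse and 4 mice in each of 3 groups. All mice were injected intraperitoneally once a day for 28 days with saline that contained 2% Tween 80. The Control group received this vehicle alone, the 10CBD group received it with 10 mg of cannabidiol (CBD, a non-intoxicating compound of Cannabis) per kg of body weight, and the 20CBD group with 20 mg per kg. A small scrape of each kidney was used for RNA isolation, so the levels are averages over the cell types in that piece, and fewer cells of a type cannot be told apart from less RNA per cell.

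Between 15417867 and 23532088 counts fell on genes in each library. The groups overlapped in depth, with 17946614 to 23532088 counts in Control, 15417867 to 21977253 in 10CBD and 16306563 to 18219064 in 20CBD. Control replicates 1, 2 and 3 were deeper than every 20CBD library. The share of counts on mitochondrial genes ranged from 3.53% to 23.4% and was under 10% in 4 libraries (Control replicate 2, 10CBD replicates 1 and 3, and 20CBD replicate 3). The proximal tubule and podocyte marker lists were detected in full in every group, as in kidney tissue. Levels are given in CPM, the counts of a gene relative to the total of its library, scaled between libraries by the TMM method.

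The start-site regions of 3 members are shown because Ren1 and Agt encode the enzyme and the substrate of the first step, and because Enpep had the largest difference from Control relative to its error. Each window holds the 250 bases before and the 50 bases after a RefSeq transcription start (table build GRCm38.p6), was found by exact match in GRCm39, and is written 5′ to 3′ on the strand of the gene. Capitals mark the letters TATAAA.
Ren1, chr1:133278162-133278461, plus strand: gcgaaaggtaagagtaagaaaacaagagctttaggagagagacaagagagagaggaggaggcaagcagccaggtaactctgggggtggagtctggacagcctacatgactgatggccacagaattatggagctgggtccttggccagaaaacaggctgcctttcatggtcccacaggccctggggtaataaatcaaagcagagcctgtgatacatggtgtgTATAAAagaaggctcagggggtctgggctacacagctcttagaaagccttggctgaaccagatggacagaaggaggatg
Agt, chr8:125296396-125296695, minus strand: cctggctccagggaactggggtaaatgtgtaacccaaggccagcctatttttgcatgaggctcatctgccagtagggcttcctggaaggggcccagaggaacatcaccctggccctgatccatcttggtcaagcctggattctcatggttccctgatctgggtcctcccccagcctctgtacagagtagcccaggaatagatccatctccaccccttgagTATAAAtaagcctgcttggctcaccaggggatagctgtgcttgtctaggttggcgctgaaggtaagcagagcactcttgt
Enpep, chr3:129126349-129126648, minus strand: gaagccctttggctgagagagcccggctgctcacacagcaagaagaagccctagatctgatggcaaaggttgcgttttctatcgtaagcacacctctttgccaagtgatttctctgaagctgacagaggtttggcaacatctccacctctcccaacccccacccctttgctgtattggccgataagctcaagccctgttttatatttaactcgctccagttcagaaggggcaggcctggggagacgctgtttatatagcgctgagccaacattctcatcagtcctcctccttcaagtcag

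TATAAA on the strand of the gene began 29 bases before the start of Ren1 and 30 bases before that of Agt, and was in 2 of the 10 windows of the members. It was in 8.32% of the 32851 windows of that length in the table. CACGTG, read on both strands, was in 0 of the 10 windows and in 7.15% of all windows. TGACGT, read on both strands, was in 1 of the 10 windows, 62 bases before the start of Atp6ap2, and in 7.51% of all windows. 7 of the 8 members had at least 1 window, and the exception was Agtr1a.

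The levels of the 8 genes were compared per kb of merged exons, since long transcripts collect more counts. Over the 12 libraries the mean level was 31.6 CPM per kb for Ren1, 29.3 for Ace, 15.5 for Atp6ap2, 14.0 for Enpep, 11.6 for Agt, 9.61 for Mme, 6.26 for Agtr1a and 0.0956 for Mas1. Ren1 was above 94.2% of the 17104 genes ranked on this scale and Mas1 above 2.05%. With the length of the canonical transcript in place of merged exons the order was the same but the spacing was not: the means were 32.9 CPM per kb for Ren1, 31.4 for Ace, 29.3 for Atp6ap2, 26.0 for Enpep, 16.2 for Agt, 13.7 for Mme, 12.6 for Agtr1a and 0.114 for Mas1.

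Most neighbours in this order overlapped. Ren1 was higher than Ace in 5 of 12 libraries only, and the ratio of their means was 1.08. Per kb of merged exons, Ace was above Atp6ap2 in 12 of 12 libraries without overlap of the ranges, with a ratio of 1.89. Per kb of the canonical transcript, it was higher in 7 of 12 libraries, the ranges overlapped and the ratio was 1.07. The ranges of Atp6ap2, Enpep, Agt, Mme and Agtr1a overlapped from each gene to the next, with ratios between 1.11 and 1.54 per kb of merged exons and between 1.09 and 1.61 per kb of the canonical transcript. Agtr1a was 65.5 times as high as Mas1 per kb of merged exons and 111 times per kb of the canonical transcript, without overlap on either scale.

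**Figure D1:**
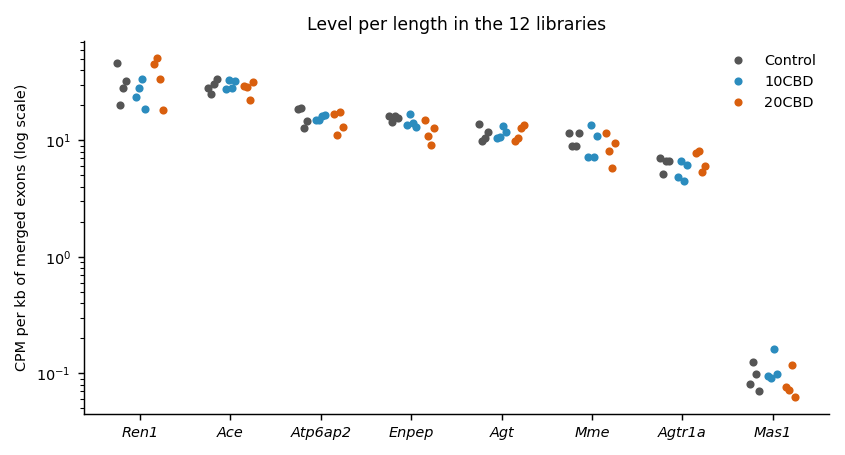
Level of each gene in CPM per kb of merged exons, on a log axis, with 1 point per library coloured by group. On this scale Ren1 spreads from 18.2 to 51.3 and Ace from 22.2 to 33.6 CPM per kb, and Mas1 lies between 0.0627 and 0.163 CPM per kb.

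None of the 8 genes was called in any comparison of the groups. The test was edgeR's quasi-likelihood test on all 17163 genes, and a gene was called at a Benjamini-Hochberg adjusted p under 0.1. In 10CBD against Control, 0 of the 8 members were called, where 0.0291% of all genes tested were (5 genes). In 20CBD against Control, 0 of the 8 were called, where 0.303% of all genes were (52 genes). In 20CBD against 10CBD, 0 of the 8 and 0 of all genes (0%) were called, while 1083 genes (6.31%) had an unadjusted p under 0.05 and DESeq2 called 12 genes and limma-voom 0. For the mean of both doses against Control, 0 of the 8 were called, where 0.140% of all genes were (24 genes). DESeq2 and limma-voom also called 0 of the 8 members in each of these comparisons.

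At an unadjusted p under 0.05 in the edgeR fit, 0 of the 8 members were counted in 10CBD against Control (5.67% of all genes), 1 in 20CBD against Control (8.45%) and 0 in 20CBD against 10CBD (6.31%). The gene was Enpep. The ranges of the groups overlapped for all 8 members in all 3 pairwise comparisons, where 3.19%, 5.30% and 3.10% of all genes did not overlap in 10CBD against Control, 20CBD against Control and 20CBD against 10CBD, in that order. The median log2 fold change of the 8 members was -0.07 in 10CBD against Control and -0.11 in 20CBD against Control, beside 0.012 and 0.015 over all genes. The comparisons with Control share the same 4 Control mice.

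**Figure D2:**
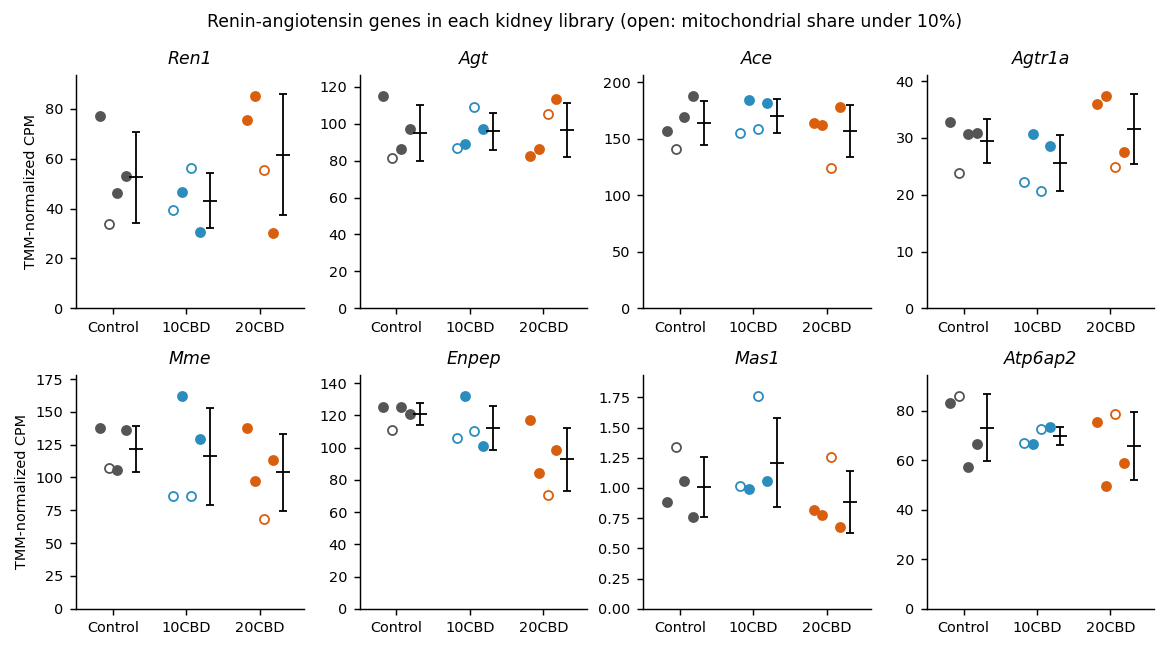
TMM-normalized CPM of the 8 genes in each mouse (points), with the mean and SD of the 4 mice of each group (bars). Open points are the 4 libraries with under 10% of counts on mitochondrial genes, and every pair of groups overlaps in every panel.

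Agt (ENSMUSG00000031980; chromosome 8, 125279301 to 125296716, minus strand, GRCm39) encodes angiotensinogen, the only precursor of the angiotensins. Its level was 115, 81.3, 86.1 and 97.3 CPM in Control replicates 1 to 4, 86.9, 89.1, 109 and 97.3 CPM in 10CBD, and 82.4, 86.3, 105 and 113 CPM in 20CBD. The groups spanned nearly the same values. The mean was 95 ± 15.1 CPM (SD, n = 4) in Control, 95.7 ± 10.2 in 10CBD and 96.6 ± 14.6 in 20CBD.

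Agt had a log2 fold change of 0.01 ± 0.14 (SE) in 10CBD against Control (edgeR adjusted p = 0.994) and 0.02 in 20CBD against Control (edgeR adjusted p = 0.987). The 95% intervals ran from -18.3% to 24.1% and from -17.5% to 25.3% relative to Control. Agt was thus among the best bounded members, together with Ace. Adipocytes also express Agt, and the summed level of 5 adipocyte markers was 96.0 to 259 CPM in Control, 67.8 to 135 in 10CBD and 67.9 to 114 in 20CBD. Most of it was Fabp4, with means of 149, 88.9 and 89.2 CPM and at least 67.4 CPM in every mouse. Adipoq had means of 11.3, 3.71 and 1.04 CPM in the same order. Of the 4 that were tested, 0 were called, with a median log2 fold change of -1.62 and -2.84 at the lower and the higher dose. At an edgeR unadjusted p under 0.05, 2 and 4 of the 4 were counted, all lower, beside 5.67% and 8.45% of all genes. The part of that difference in the Agt level was not tested. Of the merged exons of Agt, 2545 bases also lie in exons of Capn9 or Cog2 on the opposite strand, and the strand setting of the counting is not given in the sources used here.

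Ren1 (ENSMUSG00000070645; chromosome 1, 133278248 to 133288063, plus strand) encodes renin, whose release sets the pace of the cascade. Its level was 76.9, 33.6, 46.3 and 53.2 CPM in Control, 39.4, 46.5, 56.2 and 30.6 CPM in 10CBD, and 75.4, 85.1, 55.4 and 30.1 CPM in 20CBD. The highest mouse and the lowest mouse of all 12 were both in 20CBD, 2.83-fold apart. The mean was 52.5 ± 18.2 CPM (SD, n = 4) in Control, 43.2 ± 10.9 in 10CBD and 61.5 ± 24.3 in 20CBD.

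Ren1 varied most between mice. Its coefficient of variation over the 12 mice was 35.4%, beside 3.33% from counting error at 521 to 1831 counts per library. The biological coefficient of variation fitted within groups by edgeR was 0.291, above that of 80.3% of all genes, where the other 7 members lay between 0.147 (Ace) and 0.238 (Mas1).

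The log2 fold change of Ren1 was -0.28 ± 0.29 in 10CBD against Control (edgeR adjusted p = 0.927) and 0.23 in 20CBD against Control (edgeR adjusted p = 0.89). Between the doses it was 0.51, with a 95% interval from -0.12 to 1.14 (edgeR adjusted p = 0.817). The two-sided exact permutation test on log2 CPM gave p = 0.486, 0.629 and 0.343 for these 3 comparisons, where the smallest p that 4 mice against 4 allow is 0.0286. The 95% intervals ran from -46.7% to 26.9% relative to Control at the lower dose and from -24.1% to 80.5% at the higher dose. With 1 library left out, the log2 fold change of Ren1 ranged from -0.45 (without Control replicate 2) to -0.04 (without Control replicate 1) in 10CBD against Control, and from 0.03 (without 20CBD replicate 2) to 0.47 (without Control replicate 1) in 20CBD against Control. In the 8 libraries with at least 10% of mitochondrial counts (3 Control, 2 10CBD and 3 20CBD), these values were -0.62 and 0.11.

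Renin cells belong to the lineage of vascular smooth muscle and pericytes, and markers of both were measured beside Ren1. The summed level of 4 vascular smooth muscle markers was 106 to 123 CPM in Control, 118 to 159 in 10CBD and 145 to 206 in 20CBD. Of these, Myh11 (smooth muscle myosin heavy chain) rose in 20CBD with a log2 fold change of 0.71 ± 0.14 (edgeR adjusted p = 0.076). It was the 1 of the 4 that was called, where 0.303% of all genes were. With 1 library left out, the value for Myh11 was 0.59 to 0.77 and the call was lost for 9 of the 12 libraries, each Control mouse among them (edgeR adjusted p of up to 0.263). The summed level of 4 mesangial and pericyte markers was 125 to 149, 132 to 162 and 154 to 221 CPM in the 3 groups, with 0 of 4 called. The share of these cells in the Ren1 level was not tested. Of 20 genes that mark or control renin cells, such as the connexin Gja5 and the renin cell gene Akr1b7, 18 were tested and 0 were called in any comparison. In 20CBD against Control the log2 fold change was 0.53 for Gja5 (edgeR unadjusted p = 0.0437, adjusted p = 0.573) and 0.14 for Akr1b7 (adjusted p = 0.952). The 18 genes ran from -0.58 to 0.53, with 12 positive, 6 negative and a median of 0.06. In 10CBD against Control it was 0.30 for Gja5 and -0.21 for Akr1b7. Both were low, with Control means of 3.52 and 1.93 CPM.

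Ace (ENSMUSG00000020681; chromosome 11, 105858469 to 105880790, plus strand) encodes the converting enzyme. Its level was 157, 141, 169 and 188 CPM in Control, 155, 184, 159 and 182 CPM in 10CBD, and 164, 162, 124 and 178 CPM in 20CBD. The groups overlapped, and 20CBD replicate 3 was the lowest of the 12. The mean was 164 ± 19.6, 169.9 ± 15.2 and 157 ± 23.1 CPM (SD, n = 4).

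For Ace, the log2 fold change was 0.05 ± 0.13 in 10CBD against Control (edgeR adjusted p = 0.973) and -0.06 in 20CBD against Control (edgeR adjusted p = 0.947). The 95% intervals were -14.9% to 26.8% and -21.4% to 17.1% relative to Control. Ace is a gene of endothelium as well as of tubules, and 4 endothelial markers summed to 231 to 271, 208 to 247 and 217 to 284 CPM in Control, 10CBD and 20CBD, with 0 of 4 called. The exons of Ace share 952 bases with Gm11651 on the opposite strand.

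Agtr1a (ENSMUSG00000049115; chromosome 13, 30518942 to 30566850, plus strand) encodes the main AT1 receptor of the mouse kidney. Its level was 32.8, 23.9, 30.6 and 30.9 CPM in Control, 22.3, 30.7, 20.7 and 28.6 CPM in 10CBD, and 36.0, 37.4, 24.9 and 27.6 CPM in 20CBD. The lowest mouse of each group, and both of the low mice of 10CBD, were the libraries with under 10% of mitochondrial counts. The mean was 29.5 ± 3.90, 25.6 ± 4.86 and 31.5 ± 6.15 CPM (SD, n = 4).

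The log2 fold change of Agtr1a was -0.21 ± 0.17 in 10CBD against Control (edgeR adjusted p = 0.906), 0.09 in 20CBD against Control (edgeR adjusted p = 0.929) and 0.30 between the doses, with a 95% interval from -0.06 to 0.66 (edgeR adjusted p = 0.814). In the 8 libraries with at least 10% of mitochondrial counts, these 3 values were -0.09, 0.10 and 0.19. The 4 libraries below 10% hold too few mice per group for a comparison among themselves.

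Mas1 (ENSMUSG00000068037; chromosome 17, 13054861 to 13087035, minus strand) encodes the receptor of the opposing arm. It had 12 to 39 counts per library. The gene overlaps Gm55416 on its own strand and Airn and Mrgprh on the opposite strand, with 0 bases of exons shared. Whether reads from these genes entered its counts was not tested, and the strand setting is not given. Its level was 0.882, 1.34, 1.06 and 0.761 CPM in Control, 1.02, 0.990, 1.76 and 1.06 CPM in 10CBD, and 0.820, 0.778, 1.26 and 0.678 CPM in 20CBD. The highest mouse of each group was a library with under 10% of mitochondrial counts. Its coefficient of variation over the 12 mice was 29.3%, beside 23.4% from counting error.

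Mas1 had a log2 fold change of 0.26 ± 0.31 in 10CBD against Control (edgeR adjusted p = 0.936) and -0.19 ± 0.32 in 20CBD against Control (edgeR adjusted p = 0.92). With 1 library left out, the first value ranged from 0.01 (without 10CBD replicate 3) to 0.43 (without Control replicate 2), and the second from -0.41 (without 20CBD replicate 3) to -0.03 (without Control replicate 2). The 95% intervals reached from -23.9% to 89.6% and from -45.5% to 40.4% relative to Control. Of the 7 other receptors and receptor partners, 4 had too few counts to be tested, Agtr1b, Agtr2 (the AT2 receptor), Mrgprd and Bdkrb1 (a kinin receptor). The remaining 3 had 0 calls in every comparison, and their log2 fold changes lay between -0.18 and -0.05 in 10CBD and between -0.20 and -0.06 in 20CBD against Control.

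Enpep (ENSMUSG00000028024; chromosome 3, 129062824 to 129126369, minus strand) encodes aminopeptidase A, which removes the first residue of angiotensin II. Its level was 125, 111, 125 and 121 CPM in Control, 106, 132, 110.2 and 101 CPM in 10CBD, and 117, 84.4, 70.7 and 98.6 CPM in 20CBD. In 20CBD, 3 of 4 mice were below all Control mice, and the other, replicate 1, was within the Control range. In 10CBD, 3 of 4 mice were also below all Control mice, and replicate 2 was above them all. The mean was 121 ± 6.68 CPM (SD, n = 4) in Control, 112 ± 13.7 in 10CBD and 92.7 ± 19.8 in 20CBD.

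The log2 fold change of Enpep was -0.38 ± 0.15 in 20CBD against Control, with a 95% interval of -38.2% to -4.78% relative to Control. Its unadjusted p was 0.0195 in edgeR and its adjusted p was 0.492, so Enpep was not called. The two-sided exact permutation test gave p = 0.0571. In 10CBD against Control it was -0.10 ± 0.15 (edgeR adjusted p = 0.943) and between the doses -0.28 (edgeR adjusted p = 0.807). With the mitochondrial share as a covariate, the value in 20CBD against Control was -0.45 and passed the threshold (edgeR adjusted p = 0.0503), in a fit that called 8.27% of all genes (1420 genes) and 3.40% of all genes as lower. With the log2 of that share, an alternative added after the data were seen, the value was -0.42 (edgeR adjusted p = 0.0651) and 5.59% of all genes were called. Without 20CBD replicate 3 the value was -0.27 (edgeR adjusted p = 0.775).

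**Figure D3:**
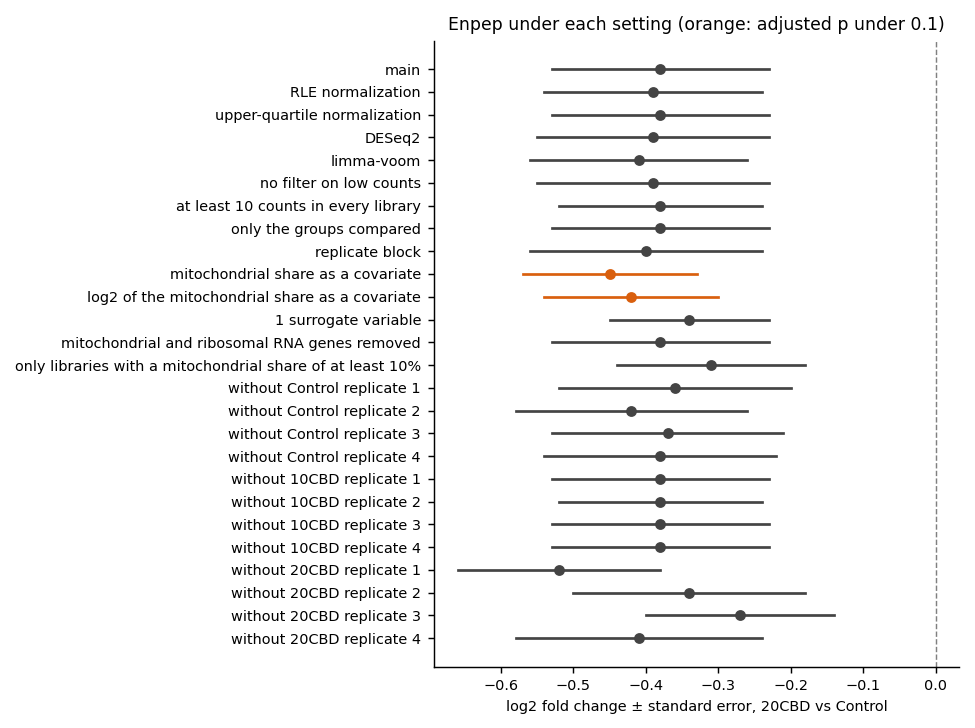
Log2 fold change of Enpep in 20CBD against Control (points) with its standard error (bars) under each processing alternative and with each library left out. All values lie between -0.52 and -0.27, and those in orange, with the mitochondrial share or its log2 as a covariate, had an adjusted p under 0.1.

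Aminopeptidase A is made in the proximal tubule, whose markers were measured beside it. The summed level of 10 proximal tubule markers was 8484 to 10103 CPM in Control, 7675 to 9679 in 10CBD and 7030.0 to 8664 in 20CBD. Of these, 1 of 10 was called in 20CBD, where 0.303% of all genes were. It was Slc5a2 (the glucose transporter SGLT2), which was lower by 0.61 on the log2 scale (edgeR adjusted p = 0.082). The log2 fold change in 20CBD was negative for 7 of the 10 and positive for 3. The largest fall was that of Lrp2, at -0.76 ± 0.18 (edgeR adjusted p = 0.173, not called). With 1 library left out, the value for Slc5a2 was -0.67 to -0.57 and the call was lost for 8 of the 12 libraries, all Control and all 20CBD mice (edgeR adjusted p of up to 0.273). The median log2 fold change of the 10 markers was -0.07 in 10CBD and -0.13 in 20CBD. The 6 podocyte markers summed to 425 to 481, 394 to 449 and 448 to 592 CPM, with 0 of 6 called. The part of these cells in the Enpep level was not tested.

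Mme (ENSMUSG00000027820; chromosome 3, 63148889 to 63293451, plus strand) encodes neprilysin, which cleaves angiotensins, natriuretic peptides and kinins. Its level was 138, 107, 106 and 136 CPM in Control, 86.2, 162, 86.1 and 129.5 CPM in 10CBD, and 138, 97.0, 68.2 and 113 CPM in 20CBD. The low mice of 10CBD, both at about 86 CPM, and the lowest mouse of 20CBD were libraries with under 10% of mitochondrial counts. The mean was 122 ± 17.6, 116 ± 36.8 and 104 ± 29.3 CPM (SD, n = 4).

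For Mme, the log2 fold change was -0.07 ± 0.23 in 10CBD against Control (edgeR adjusted p = 0.98) and -0.23 ± 0.23 in 20CBD against Control (edgeR adjusted p = 0.854). Its 95% interval at the higher dose was -38.7% to 19.4% relative to Control. In the 8 libraries with at least 10% of mitochondrial counts, the values were 0.20 and -0.12, so the direction at the lower dose depended on the libraries used.

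Other peptidases of the same pathway and membrane were counted from lists. Of 17 other peptidases that act on angiotensins, 13 were tested and 0 were called in each comparison, with a median log2 fold change of -0.04 in 10CBD and -0.10 in 20CBD against Control. Of 8 other brush border peptidases, all 8 were tested and 0 were called, with medians of 0.03 and -0.20. The smallest unadjusted p of all pathway genes in 20CBD against Control was that of Xpnpep2 (aminopeptidase P of the brush border), with a log2 fold change of -0.42 ± 0.15 (edgeR unadjusted p = 0.011, adjusted p = 0.43). Anpep (aminopeptidase N, which acts on the product of aminopeptidase A) had -0.23 ± 0.10 in 10CBD (edgeR unadjusted p = 0.047, adjusted p = 0.865).

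Atp6ap2 (ENSMUSG00000031007; chromosome X, 12453960 to 12495037, plus strand) encodes the (pro)renin receptor, which is also an accessory subunit of the V-ATPase, the proton pump of endosomes and lysosomes. Its level was 83.1, 86.0, 57.4 and 66.6 CPM in Control, 67.1, 66.7, 72.6 and 73.6 CPM in 10CBD, and 75.5, 49.6, 78.6 and 59.1 CPM in 20CBD. The 10CBD mice lay inside the range of both other groups. The mean was 73.3 ± 13.6, 70 ± 3.62 and 65.7 ± 13.7 CPM (SD, n = 4).

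Atp6ap2 had a log2 fold change of -0.07 ± 0.16 in 10CBD against Control (edgeR adjusted p = 0.973) and -0.16 in 20CBD against Control, with a 95% interval from -29.1% to 13.4% relative to Control (edgeR adjusted p = 0.855). Of 11 ubiquitous subunits of the V-ATPase, 0 were called in any comparison, and 9 of 11 had a negative log2 fold change at each dose against the same Control mice, with medians of -0.13 and -0.14. Among them, Atp6v0e had -0.35 ± 0.13 in 10CBD (edgeR unadjusted p = 0.0151, adjusted p = 0.812). Atp6v1b2 had -0.29 ± 0.12 in 20CBD (edgeR unadjusted p = 0.0278, adjusted p = 0.522). Atp6v0c had -0.23 in 10CBD and -0.26 in 20CBD (edgeR adjusted p = 0.87 and 0.54). In all, 51 of 61 genes of the pathway lists were tested, and 0 were called in any of the comparisons.

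**Figure D4:**
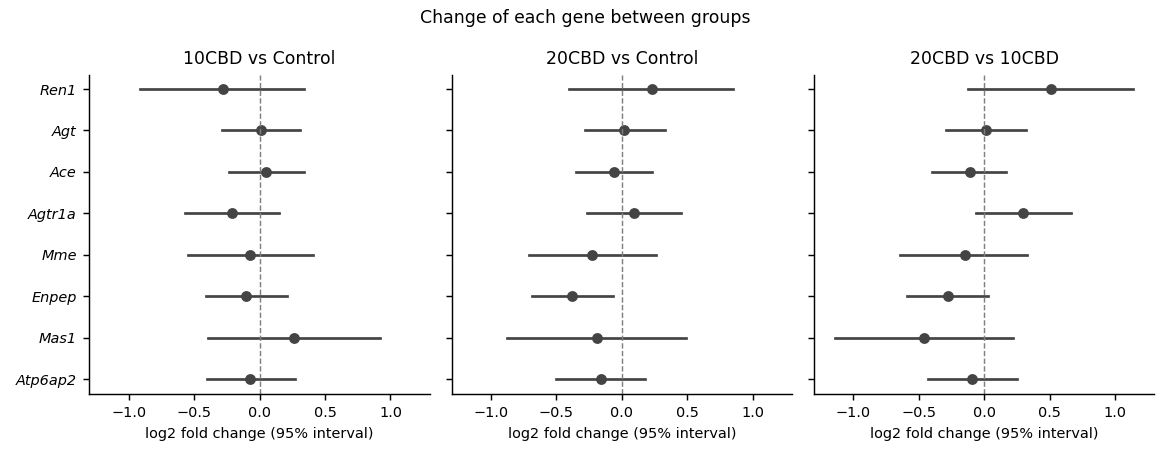
Log2 fold change of each gene (points) with its 95% interval (bars) in 10CBD against Control, 20CBD against Control and 20CBD against 10CBD. The widest intervals are those of Ren1 and Mas1, and Enpep in 20CBD against Control is the only interval, unadjusted for the number of genes, that does not cross 0.

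Several members also differed with the mitochondrial share of the library. Agtr1a was at 20.7 to 24.9 CPM in the 4 libraries with under 10% of mitochondrial counts and at 27.6 to 37.4 CPM in the other 8. Mme was at 68.2 to 107 and 97.0 to 162 CPM, Ace at 124 to 159 and 157 to 188 CPM, and Mas1 at 1.02 to 1.76 and 0.678 to 1.06 CPM, in the same order. The levels of Ren1 (33.6 to 56.2 and 30.1 to 85.1 CPM), Agt, Enpep and Atp6ap2 overlapped widely between these libraries. How many of all genes have ranges apart at this split, as Agtr1a does, was not counted.

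The mitochondrial share was then added to the edgeR model of the 3 groups, and the change per 10 percentage points was tested over all genes, an analysis chosen after the data were seen. 3 of the 8 members were called, all higher with a higher share, where 38.3% of all genes were called (18.8% higher and 19.6% lower), so the share of members called was close to that of all genes. The log2 change was 0.37 ± 0.07 for Agtr1a (edgeR adjusted p = 9.7e-04), 0.44 ± 0.12 for Mme (edgeR adjusted p = 0.00839) and 0.21 ± 0.07 for Ace (edgeR adjusted p = 0.039). The call of Ace was lost without 20CBD replicate 3, with a log2 change of 0.15 (edgeR adjusted p = 0.269). Enpep passed the threshold without 10CBD replicate 4 or 20CBD replicate 2 (0.23 and 0.25), and Atp6ap2 without 10CBD replicate 1 or 4 or 20CBD replicate 1 (-0.23, -0.23 and -0.25). With all libraries, Enpep had 0.18 (adjusted p = 0.133), Atp6ap2 -0.19 (0.133), Mas1 -0.37 (0.216), Ren1 0.22 (0.408) and Agt -0.10 (0.446), each from the same edgeR fit. What the mitochondrial share stands for in these kidneys was not tested.

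**Figure D5:**
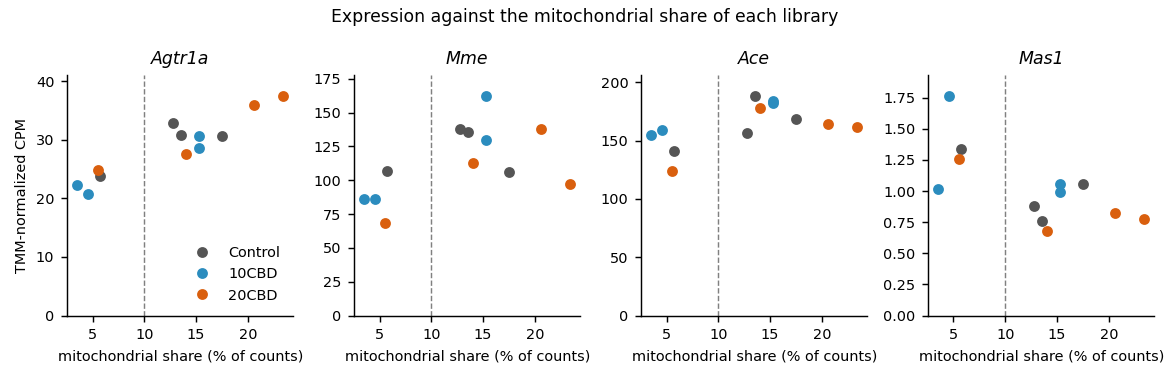
TMM-normalized CPM of Agtr1a, Mme, Ace and Mas1 against the share of counts on mitochondrial genes in each of the 12 libraries, coloured by group, with a dashed line at 10%. The 4 libraries left of the line have the lowest Agtr1a levels, at 20.7 to 24.9 CPM.

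The genes whose log2 CPM followed each member most closely over the 12 libraries were taken from all 17163 genes, as a description without a test, since the highest of many correlations is high by selection. For Mme it was Acer3 (Pearson r = 0.982, Spearman rho = 0.972, and r = 0.981 after removal of group means), for Atp6ap2 it was Pgrmc1 (r = 0.966, rho = 0.958, 0.975), and for Ace it was Zfp236 (r = 0.963, rho = 0.972, 0.982). For Agtr1a it was G6pdx (r = 0.956, rho = 0.916, 0.952), for Enpep it was Zmpste24 (r = 0.955, rho = 0.916, 0.918), and for Mas1 it was AI854703 (r = 0.923, rho = 0.944, 0.899). For Ren1 it was Gtse1 (r = 0.911, rho = 0.923, 0.932), and for Agt, the least closely followed, it was Pde4c (r = 0.799, rho = 0.839, 0.886). The second genes by this measure were Abca13 for Mme, Sar1a for Atp6ap2, Lama1 for Ace, Cd55 for Agtr1a, Copb1 for Enpep, Mapk7 for Mas1, Ifi204 for Ren1 and Gm56637 for Agt. The libraries share their depth and mitochondrial share in these correlations, and no other member was among the closest genes of any member.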

How the data were processed

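Kidney poly(A) RNA of 12 mice was sequenced as paired reads from directional libraries. Per the labels and the study's methods, the authors used Flexbar for trimming, STAR 2.7.5c for mapping to GRCm39, and counted reads per Ensembl gene by HTSeq 1.99.2, and the deposited files hold these whole-number counts without normalization. The annotation release, the strand setting and the use of molecular identifiers are not given in the sources used here. If reads were not collapsed to molecules, counting error is understated.

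Identifiers were matched to GENCODE vM39, which held 99% of them and 99.95% of the counts. Summary lines of the counting tool were left out. All libraries differed in their counts. After edgeR's filterByExpr (3 groups), genes were normalized by TMM and tested with edgeR 4.0.16 (R 4.3.3, quasi-likelihood, 1 mean per group, all 12 libraries), with Benjamini-Hochberg adjustment over the 17163 genes tested and a threshold of 0.1, that of the study, which used DESeq2. Log2 CPM used a prior count of 2. Single genes were also compared by two-sided exact permutation tests. The scripts were tested on simulated data.

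The members, the gene lists and the alternatives were chosen with earlier results of these data known. Text names all 8 members, any pathway gene called and the 2 genes most like each member. It also names the 3 pathway genes of smallest p in each comparison with Control. Gja5, Akr1b7, Myh11, Slc5a2, Lrp2, Fabp4, Adipoq, Apob, Alb and Kit were named after their values were seen. Alternatives were RLE and upper-quartile normalization, DESeq2 1.42.0, limma-voom (limma 3.58.1), all genes with counts or a minimum of 10 counts in each library, separate models for the groups of a comparison, a replicate block from the label numbers, the mitochondrial share or 1 surrogate variable (sva 3.50.0) as a covariate, removal of mitochondrial and ribosomal RNA genes, only libraries with a mitochondrial share of at least 10%, an adjusted p under 0.05, and each library left out in turn. The log2 of the mitochondrial share, the canonical transcript length and the change of each gene with that share were added after the data were seen. Start-site windows came from RefSeq.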

Additional observations from a re-analysis of the deposited data

Results flagged for a closer look

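Mas1 in the 10CBD group had 1 mouse apart from the other 3: replicate 3 was at 1.76 CPM (39 counts), where the others were at 0.990, 1.02 and 1.06 CPM. Its gap to the nearest mouse was 0.913 of the range of the group, above the 95% limit of Dixon's test for 4 samples. This was 1 of 24 groups examined (8 genes in 3 groups), and chance gives about 1 in 20. The library had 4.55% of its counts on mitochondrial genes, the second lowest share, and the part of that share in the Mas1 level was not tested.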

How the results depend on the processing

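With each setting counted once per comparison, no member was called in 101 of 103 results. For 20CBD against Control these were 12 settings with 1 library left out and 14 other alternatives. In 20CBD against Control, 1 member, Enpep, was called with the mitochondrial share as a covariate and 1, again Enpep, with its log2; the cause was not tested. Same-numbered mice correlated above 0.1 in 4 of 12 pairs (-0.33 to 0.32), and mice of different numbers in 13 of 36 pairs (-0.43 to 0.45). Other differences between libraries, such as the mitochondrial share, also enter these values, so they cannot tell whether the numbers mark pairs. The replicate block gave 0 member calls and -0.40 for Enpep at the higher dose (edgeR adjusted p = 0.61). It called 27 genes at that dose in place of 52, without Myh11 and Slc5a2 (edgeR adjusted p = 0.138 and 0.206). Over all genes, the calls in 10CBD, 20CBD, between the doses and for the mean of both doses were 5, 52, 0 and 24. They were 40, 182, 12 and 136 with DESeq2, 331, 416, 256 and 393 without a filter on low counts, 15, 1420, 66 and 293 with the mitochondrial share, 13, 959, 29 and 192 with its log2, 13, 406, 6 and 145 with a surrogate variable, 26, 107, 0 and 67 with at least 10% of mitochondrial counts, and 3, 23, 0 and 13 at an adjusted p under 0.05. With 1 library left out they ranged from 2 to 8, 14 to 54, 0 to 0 and 8 to 35, lowest at the higher dose without Control replicate 1, 2 or 4 (14 each).

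Of 792 recomputed member changes, 723 kept direction and side of the threshold and 67 turned direction, all of changes of at most 0.150. With 1 library left out, in 10CBD against Control, Agt ranged from -0.06 to 0.12, Ace from -0.01 to 0.12, Mme from -0.28 to 0.05 and Atp6ap2 from -0.17 to 0.02; in 20CBD, Agt from -0.06 to 0.13, Ace from -0.13 to 0.04 and Agtr1a from 0.00 to 0.19; between the doses, Agt from -0.07 to 0.09, Mme from -0.32 to 0.05 and Atp6ap2 from -0.19 to 0.02; and for the mean of both doses, Ren1 from -0.19 to 0.22, Agt from -0.05 to 0.13, Ace from -0.07 to 0.07 and Mas1 from -0.09 to 0.20. In 10CBD against Control, Agt was -0.02 without a filter, with the mitochondrial share and with a surrogate variable, -0.01 with the log2 share and -0.10 with at least 10% of mitochondrial counts; Mme was 0.06 with the log2 share, 0.10 with a surrogate variable and 0.20 with at least 10%, where Atp6ap2 was 0.02. In 20CBD, Agtr1a was -0.05 with the mitochondrial share, and Agt 0.00 with a surrogate variable and -0.08 with at least 10%. Between the doses, Atp6ap2 was 0.02 with the mitochondrial share. For the mean of both doses, Agt was 0.00 without a filter and Ace 0.00 with at least 10 counts in every library; with the log2 share Ace was 0.02 and Mas1 -0.01; with a surrogate variable Ren1 was 0.03, Agt -0.01, Ace 0.08, Agtr1a 0.05 and Mas1 -0.11; and with at least 10% Agt was -0.09, Ace 0.03, Agtr1a 0.01, Mme 0.04 and Mas1 -0.03. With 4 mice a group, the intervals of Ren1 and Mas1 were widest. The p-values set the group differences against the spread between these mice, counting error included.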

Other observations

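Of the other marker lists, 5 adrenal cortex markers summed to at most 5.74 CPM in any library. Cyp11b2 (aldosterone synthase, a target of angiotensin II in the adrenal gland) was at 0 counts in all Control and 10CBD libraries, and Cyp11b1 in all 10CBD libraries. Both were among the 4 of these 5 markers with too few counts to be tested. The 5 liver markers summed to 240.5 to 391 CPM in Control, 205 to 352 in 10CBD and 207 to 351 in 20CBD, with 0 of 5 called. Most of that sum was Apob, with means of 232, 177 and 199.6 CPM, while Alb had means of 9.67, 10.2 and 7.66 CPM. The 5 red blood cell markers summed to 627 to 1470.0, 639 to 1169 and 711 to 1693 CPM, with 0 of 5 called. The 5 mast cell markers, a list that holds the angiotensin-forming chymases Cma1 and Mcpt4, summed to 15.0 to 24.9, 12.3 to 21.2 and 14.2 to 15.4 CPM. Of these, 1 was tested, Kit, and 0 were called. Nearly all of the sum was Kit, with means of 20.1, 16.8 and 15.0 CPM in Control, 10CBD and 20CBD. In the same order, the means were 0.108, 0.0221 and 0.0450 CPM for Cma1 and 0.0914, 0.0147 and 0 CPM for Mcpt4. These means are below the level of 3 counts in any library (0.127 to 0.195 CPM), too few to compare the groups.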
